A study of Mus musculus with 12 samples.

Results

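The genes described here are the myosin light chains of heart muscle, the kinases that phosphorylate them, and cardiac myosin-binding protein C. They are Myl2, Myl3, Myl4, Myl7, Mylk3, Mylk and Mybpc3, 7 genes of the 21887 protein-coding nuclear genes in the RefSeq table. They were taken by name, and every peak that the authors had assigned to any of them was kept. That gave 10 of the 30534 Meis1 peaks and 35 of the 22284 Hoxb13 peaks.

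The peaks come from chromatin immunoprecipitation and sequencing of ventricles, taken at postnatal day 15 from mice of the outbred CD-1 strain. No genotype or drug treatment is given in the labels. The 12 libraries fall into 4 groups of 3, an anti-Meis1 precipitate, an anti-Hoxb13 precipitate and the input chromatin paired with each. Each factor has 1 deposited list made over its 3 libraries. No value of a single heart was therefore at hand, no spread between hearts can be given for any value, and read depth is unknown. The inputs entered no comparison. Ventricle was the tissue sampled, and peak lists hold no expression, so the tissue label could not be checked against marker transcripts.

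Each myosin head of the sarcomere carries an essential and a regulatory light chain on its lever arm. In the mouse heart Myl2 encodes the ventricular regulatory chain and Myl3 the ventricular essential chain, while Myl7 and Myl4 encode the corresponding atrial chains. Mylk3 is the cardiac kinase that phosphorylates the regulatory chain, and Mylk is the kinase of smooth muscle and non-muscle cells. Mybpc3 binds the thick filament and restrains the myosin heads. Meis1 is a TALE homeobox factor whose known core site is TGACAG, and Hoxb13 is a posterior Hox protein whose preferred sites share a TAAA core.

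All 7 genes had at least 1 Hoxb13 peak, whereas 4 of them, Myl2, Myl3, Mylk3 and Mylk, had a Meis1 peak. Among all protein-coding genes 44.4% had a Hoxb13 peak, 38.2% a Meis1 peak and 23.9% both. The 7 genes were chosen with earlier results of these data known, so their counts describe these genes and not the wider family. The 2 ventricular light chain genes carried the most assigned peaks of the 4 light chain genes. Myl2 had 17 Hoxb13 and 3 Meis1 peaks and Myl3 had 6 and 2. The atrial genes Myl4 and Myl7 each had 1 Hoxb13 peak and 0 Meis1 peaks. Mylk3 was the sole member with more Meis1 than Hoxb13 peaks, 4 against 2. Mylk had 3 Hoxb13 peaks and 1 Meis1 peak, and Mybpc3 had 5 Hoxb13 peaks and 0 Meis1 peaks. In RefSeq the gene bodies span 20.8 kb for Myl2, 6.12 kb for Myl3, 41.2 kb for Myl4, 2.15 kb for Myl7, 61.4 kb for Mylk3, 257 kb for Mylk and 18.4 kb for Mybpc3. Mylk, the longest, had 4 assigned peaks in all, and Myl3, the second shortest, had 8. Within the gene body itself, whatever gene the peaks were assigned to, Mylk held 2 Meis1 and 2 Hoxb13 peaks. Myl3 held 1 of each there. The Myl4 body held 0 Meis1 and 3 Hoxb13 peaks, 2 of them assigned to the neighbour Cdc27, and so more Hoxb13 peaks than that of Myl3. The Myl2 body held 2 Meis1 and 16 Hoxb13 peaks, and the Myl7 body 0 of each.

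**Figure D1:**
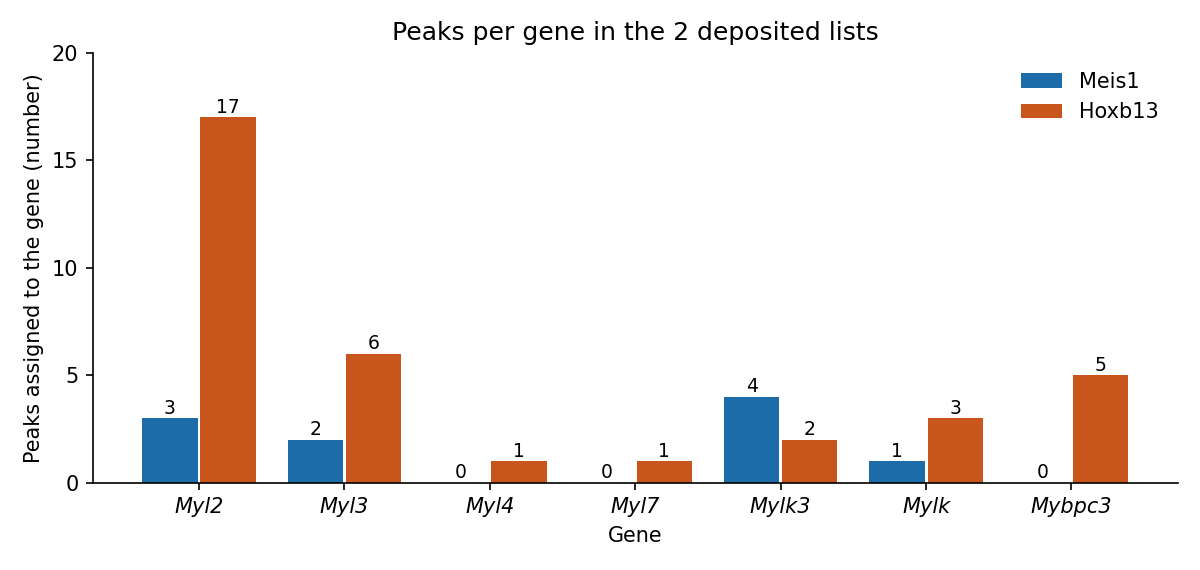
Number of Meis1 (blue) and Hoxb13 (orange) peaks assigned by the authors to each of the 7 genes, with the number above each bar. Myl2 has 17 Hoxb13 peaks, and Myl4, Myl7 and Mybpc3 have 0 Meis1 peaks.

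Peak strength below is the authors' deposited signal value of a peak, and it is compared only within 1 list. Over the whole Meis1 list it ran from 15.6 to 552 with a median of 18.7, and over the Hoxb13 list from 17.8 to 697 with a median of 21.4. The 10 Meis1 peaks of these genes had a median of 36.6, and 4 of them were among the strongest 10% of the list, 2 at Myl2 and 2 at Mylk3. The 35 Hoxb13 peaks had a median of 23.0 and reached at most 49.0, and 4 were among the strongest 10%, 3 at Myl2 and 1 at Mybpc3. That is 40.0% of their Meis1 peaks and 11.4% of their Hoxb13 peaks.

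**Figure D2:**
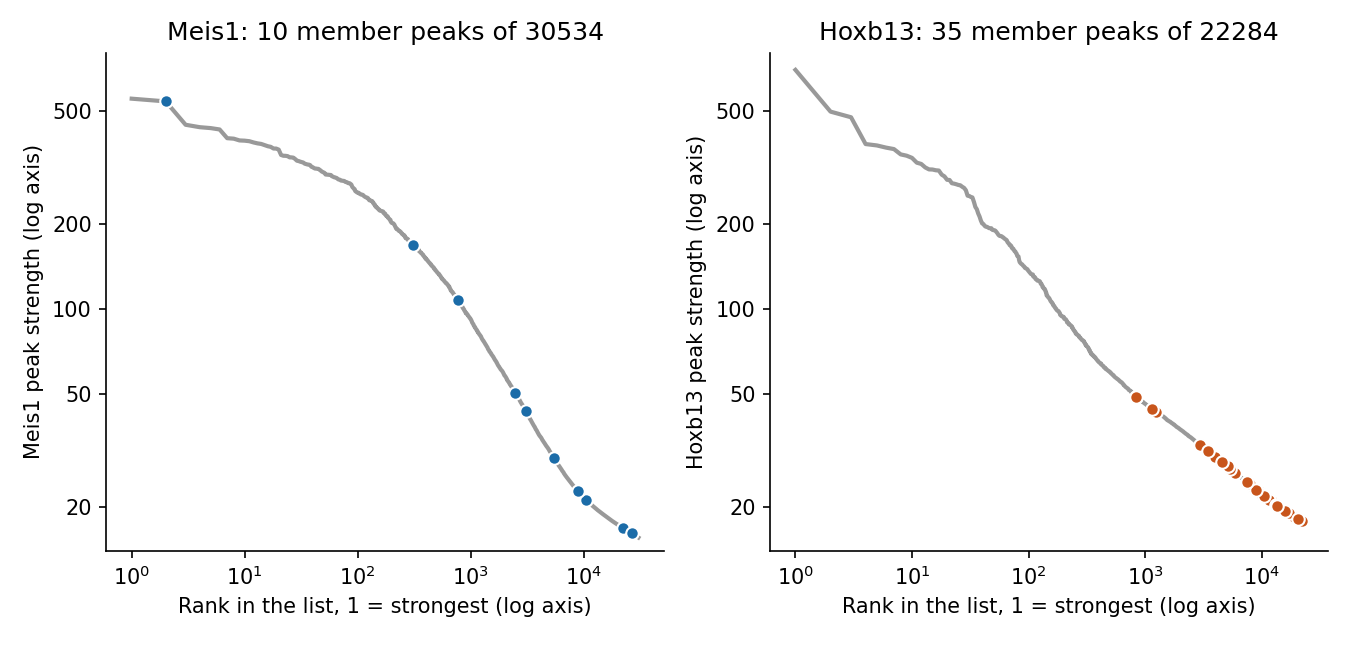
Peak strength against rank in each list, both on log axes, with all peaks as a grey line and those of the 7 genes as points. The Meis1 points include rank 2 (strength 540), while the highest Hoxb13 point is at rank 843 (strength 49.0).

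Myl2 held the strongest Meis1 site of the group. With a strength of 540 it ranked 2 in the list, spanned 122094515 to 122094838 of chromosome 5 (mm10) and lay 6.14 kb before the start the authors used. A second Meis1 peak, at 122092825 to 122093168, 7.81 kb upstream, had a strength of 168 and rank 309. The third, with a strength of 21.1, lay 13.9 kb downstream of the start, in an intron of the neighbouring gene Ccdc63. The authors classed both upstream sites as intergenic, so Myl2 had 0 Meis1 promoter peaks. That class rests on a transcript that starts at 122100980. RefSeq places starts of Myl2 farther out, at 122092724 and 122093189, and a gene body from 122092724 to 122113473. Against those starts the summit of the second Meis1 peak lay 161 bp from the nearest start and that of the strongest 1.48 kb from it, inside the RefSeq gene. With promoters drawn within 1 kb of RefSeq starts, 3 of the 7 genes had a Meis1 promoter peak rather than 2, Myl2 being the gain. The set of RefSeq starts used here is partial, with none at the upstream end of the gene bodies of Mylk3, Myl4 and Mylk. That 122100980 is not in the set therefore does not show that RefSeq lacks it, and the gain rests on this set.

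The 250 bases before the RefSeq start at 122093189 are shown because 230 of them lie under the second Meis1 peak. They are RefSeq sequence of GRCm38.p6 (the mm10 assembly), plus strand, chr5:122092939-122093188. Capitals mark TGACAG read on the opposite strand, the single match in this stretch. It lies 18 bp from the Meis1 summit.
Myl2: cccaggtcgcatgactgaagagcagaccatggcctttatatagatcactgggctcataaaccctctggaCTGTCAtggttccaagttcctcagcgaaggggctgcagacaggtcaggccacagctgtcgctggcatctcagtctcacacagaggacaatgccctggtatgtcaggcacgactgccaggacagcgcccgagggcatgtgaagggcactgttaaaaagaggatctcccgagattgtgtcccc

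The 17 Hoxb13 peaks of Myl2 were spread over 19.9 kb, from 122094047 to 122113921, and formed 15 separate regions covering 6.24 kb. Among protein-coding genes 19, Myl2 included, had at least 17 Hoxb13 peaks (0.0868% of genes). Of the others, named after their counts were seen, Ttn had 93 and Atp2a2 29, and all but Irf2bp2 and Btbd35f18 are longer than Myl2. The Hoxb13 strengths at Myl2 ran from 17.9 to 49.0 with a median of 23.2. The strongest were a peak 10.3 kb downstream of the start (strength 49.0, rank 843), a peak 7.04 kb downstream in a 3' untranslated region (49.0, rank 844) and a peak that began 36 bp downstream of the start (44.3, rank 1151). The last, at 122101016 to 122101411, and a weaker one 351 bp upstream (27.2) were its promoter peaks. Of the rest 3 lay upstream, 2 within the assigned transcript and 10 beyond its end. Myl2 in RefSeq holds 16 of the 17 summits, and 9 of the 10 beyond the assigned transcript lie in Ccdc63, 8 of them in both genes.

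**Figure D3:**
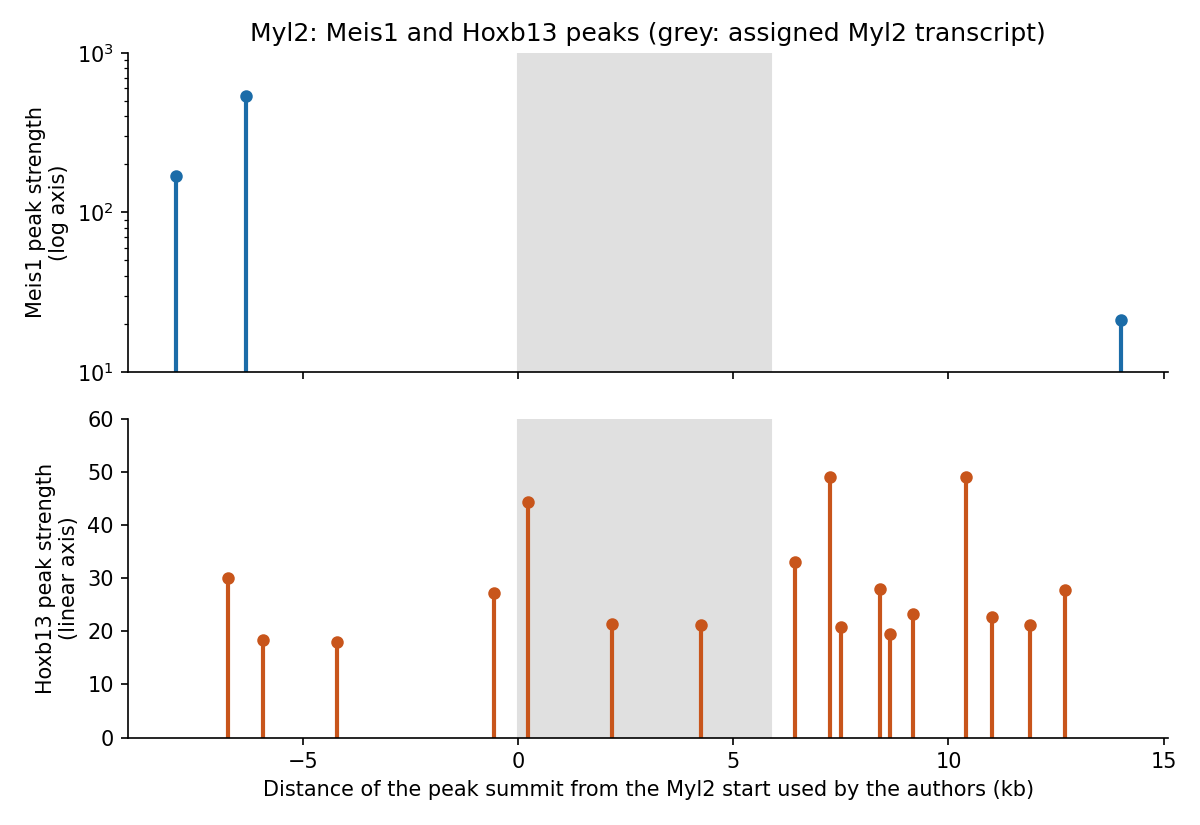
Peaks assigned to Myl2, placed by the distance of the summit from the start used by the authors (kb), with strength on a log axis for Meis1 (top) and on a linear axis for Hoxb13 (bottom). The grey band is the assigned transcript of 5.88 kb. The 2 strong Meis1 peaks stand upstream, whereas 10 of the 17 Hoxb13 peaks lie beyond the end of the transcript.

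The strongest Meis1 peak of Myl2 was flanked by Hoxb13 peaks without overlapping either. A Hoxb13 peak of strength 30.0 ended 72 bp before it, and another of strength 18.4 began 25 bp after it, with summits 420 bp and 397 bp from the Meis1 summit. In the whole list 69 Meis1 peaks (0.226%) had no overlap but a Hoxb13 peak within 500 bp on each side.

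Myl3 had Meis1 peaks weaker than the 2 upstream ones of Myl2, while its Hoxb13 peaks had a median of 23.1, beside 23.2 at Myl2. Its Meis1 peaks lay 142 bp upstream of the start (chromosome 9, 110763256 to 110763539, strength 16.8) and 2.26 kb downstream in intron 1 (110765942 to 110766225, strength 29.7). The promoter peak ranked 22403 of 30534 and the intron peak 5457. Of its 6 Hoxb13 peaks, with strengths from 19.0 to 31.4, 1 was in the promoter class, 546 bp downstream of the start, 1 lay 4.68 kb upstream and 4 lay past the gene. The strongest of them was 9.75 kb from the start (110773427 to 110773822). No Myl3 peak of 1 factor overlapped a peak of the other, and the closest summits were 1027 bp apart.

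The 250 bases before the Myl3 start are printed to set this weak promoter peak beside the stronger ones of Myl2 and Mylk3. The Meis1 peak covers 112 of them, its summit lies 280 bp from the RefSeq start and so outside them, and TGACAG does not occur in them. The stretch is RefSeq GRCm38.p6, plus strand, chr9:110763428-110763677. Capitals mark GGAATG, a Tead motif, once on each strand, and then a CArG box, the motif of serum response factor, which also contains TTTATNG, a Hox core.
Myl3: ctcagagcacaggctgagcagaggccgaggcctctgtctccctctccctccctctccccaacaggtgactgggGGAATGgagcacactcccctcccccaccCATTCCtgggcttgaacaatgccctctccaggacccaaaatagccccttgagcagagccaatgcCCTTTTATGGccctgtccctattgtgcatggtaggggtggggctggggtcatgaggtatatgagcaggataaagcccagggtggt

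The atrial light chain genes had few assigned peaks. The Myl7 peak of Hoxb13 lay 444 bp upstream of the start (chromosome 11, 5899226 to 5899621) with a strength of 18.1, rank 20353 of 22284. The Myl4 peak had a strength of 17.8, rank 22046, and lay 5.60 kb upstream of an inner start (chromosome 11, 104571381 to 104571776), within an intron. The nearest Meis1 summit was 16533 bp from the Myl7 peak and 156044 bp from the Myl4 peak. Both Hoxb13 peaks were near the lower end of the list, and neither gene stayed among those with a peak when the stronger 50% of the list was used. Near the RefSeq start used for Myl4, at 104550663, lay 2 further Hoxb13 peaks (strengths 18.2 and 31.6). The authors had assigned both to the neighbour Cdc27, at 0.542 kb and 0.247 kb from its start. With those, 6 genes rather than 5 had a Hoxb13 peak within 1 kb of a RefSeq start. Myl2 still counted there, through the near edge of the upstream peak of strength 30.0 and not through the peaks at 122100980. The summit of that peak lay 1056 bp from the nearest RefSeq start, so by summits within 1 kb the count was 5, without Myl2.

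Mylk3 carried peaks of both factors at each of the 2 starts they were assigned to, in the same arrangement. The gene lies on the minus strand of chromosome 8. At the inner start (85365324) the Meis1 peak, 85365335 to 85365492, had a strength of 107 and rank 780, and its summit lay 113 bp upstream. The Hoxb13 peak, 85364815 to 85365210, had a strength of 24.4 and its summit lay 311 bp downstream. At the outer start (85381041) the Meis1 peak, 85381025 to 85381308, had a strength of 50.3 with its summit 126 bp upstream. The Hoxb13 peak there, 85380515 to 85380910, had a strength of 20.1 and its summit lay 328 bp downstream. The peaks were separated by 124 bp at the inner and 114 bp at the outer start. Of the 975 starts in the 2 lists with a promoter peak of each factor, 316 (32.4%) had the Meis1 summit upstream and the Hoxb13 summit downstream, and 87 (8.92%) the reverse, so the arrangement at Mylk3 is the commoner of those 2 and is also that of Myl3. The other Mylk3 peaks of Meis1 lay in intron 1, 1.23 kb from the outer start (strength 43.6), and 5.22 kb upstream of that start (22.7). The last, 85386258 to 85386541, spans the outer end of the RefSeq gene body (85386340). On the minus strand that is the end where the gene begins, so by the RefSeq body the peak is not distal. The authors classed it as intergenic, and the RefSeq starts used here include none at that end. The nearest Hoxb13 summit was 5687 bp away.

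The 250 bases before each Mylk3 start are shown since Meis1 peaks cover 158 of them at the inner and all 250 at the outer start. Both are RefSeq GRCm38.p6, minus strand, chr8:85365325-85365574 for the inner and chr8:85381042-85381291 for the outer start. In the inner sequence capitals mark the Tead motif and then the Meis core, the latter read on the opposite strand, and each lies 32 bp from the Meis1 summit. In the outer sequence they mark the motif of GATA factors, AGATAA, at 2 places, 28 bp and 78 bp from the summit, and the Meis core does not occur.
Mylk3 inner start: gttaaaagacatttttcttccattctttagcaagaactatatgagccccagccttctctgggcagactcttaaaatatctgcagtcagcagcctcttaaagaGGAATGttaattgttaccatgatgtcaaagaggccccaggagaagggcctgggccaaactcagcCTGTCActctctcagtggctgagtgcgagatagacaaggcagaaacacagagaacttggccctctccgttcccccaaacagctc
Mylk3 outer start: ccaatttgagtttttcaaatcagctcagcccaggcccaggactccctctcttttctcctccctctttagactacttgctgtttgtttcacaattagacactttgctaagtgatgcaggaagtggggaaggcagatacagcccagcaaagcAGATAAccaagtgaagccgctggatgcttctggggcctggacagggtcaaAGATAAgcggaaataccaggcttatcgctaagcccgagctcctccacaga

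Over all 32851 promoter windows of the RefSeq table (250 bases before to 50 after a start, both strands searched), 19.2% held TGACAG. Of the 1369 windows that a Meis1 peak touched 43.5% held it, and of the 5847 touched by a Hoxb13 peak 15.7% did. All 7 genes matched the table, with 9 windows. A Meis1 peak touched 4 of them, the printed ones, and TGACAG was found in 2 of these, at Myl2 and at the inner start of Mylk3, which were the 2 with the stronger Meis1 peaks. At Myl3, the weakest of the 4, the summit lay outside the window, which held 112 bp of the 284 bp peak. Most of that peak was therefore not searched. TGACAG was also present before the outermost Myl2 start (122092724), where no peak touched the window. GGAATG was held by 14.7% of all windows, AGATAA by 11.2%, TTTATNG by 10.9%, a CArG box by 1.63% and a Mef2 box by 3.69%. The CArG box occurred at Myl3 and Myl7, 85 and 61 bases before the start, and the Mef2 box at Mybpc3. CCAATAAA (1.12% of all windows) and CTCGTAAA (0.131%), sites preferred by Hoxb13, and TGATTNAT (3.22%), a Pbx-Hox site, were in 0 of the 9. TGACAGNT, a longer Meis site (5.02%) that contains TGACAG, was also in 0. A Hoxb13 peak touched 1 of the 9 windows, that of Mybpc3, and by 4 bp, where 17.8% of all windows were touched. The Hoxb13 peaks of these genes thus lay almost wholly outside the windows, so 0 matches does not describe the sequence under them. The distal peaks of these genes could not be read, because no genome sequence was used here.

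Mylk was the single gene of the group with overlapping peaks of both factors, a state found at 6.11% of protein-coding genes. The site lay just past the 3' end of the gene on chromosome 16, with a Meis1 peak from 35002442 to 35002725 and a Hoxb13 peak from 35002605 to 35003000. Their summits lay 150 bp and 369 bp past the gene end. They shared 121 bp and their summits were 219 bp apart. The Meis1 peak, with a strength of 16.1 (rank 26922 of 30534), was near the lower end of its list. The Hoxb13 peak, with a strength of 23.0 (rank 9023 of 22284), was somewhat above its list median of 21.4. The other 2 Hoxb13 peaks lay in introns, with strengths of 20.3 and 19.3. The body of Mylk also contained 2 stronger Meis1 peaks that had been assigned to small genes inside it. A peak of strength 89.2 (34958747 to 34958877) was given to the promoter of E130310I04Rik, and a peak of strength 49.8 (34940399 to 34940682), in intron 18 of Mylk, to 1700119H24Rik. Read by gene body, Mylk would thus hold Meis1 peaks of up to 89.2, against 16.1 for the assigned one.

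Mybpc3 had Hoxb13 peaks at its start and around its end, and Meis1 was far away. The promoter peak on chromosome 2, from 91118190 to 91118585, had a strength of 23.9. An intron 22 peak had a strength of 20.1, and 3 peaks past the end had strengths of 23.8, 43.3 and 26.4. The strongest, 91137465 to 91137860 (rank 1244), lay 1147 bp past the end of the transcript, in the neighbouring gene Madd, to which 2 more Hoxb13 peaks within 10 kb of Mybpc3 were assigned (29.4 and 24.2). The nearest Meis1 summit, assigned to Slc39a13, was 51667 bp from the promoter peak.

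**Figure D4:**
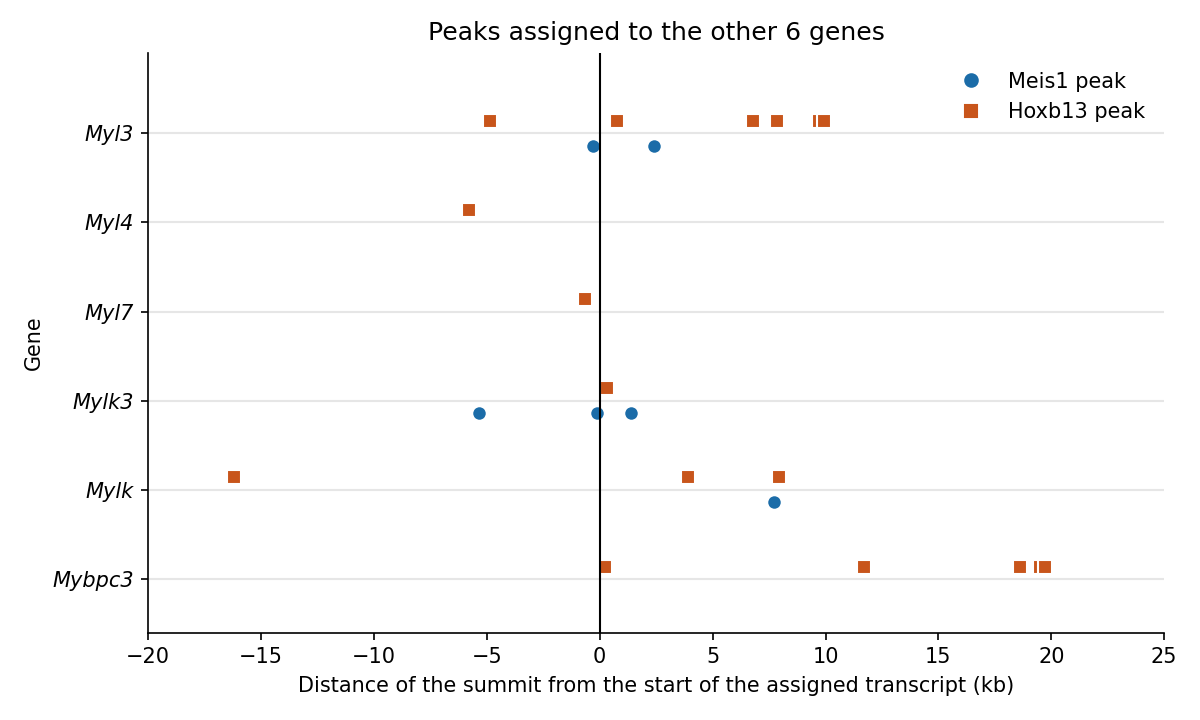
Summits of the peaks assigned to the genes other than Myl2, by distance (kb) from the start of the transcript each peak was assigned to; the 2 starts of Mylk3 and the several starts of Mylk are drawn on top of each other. Hoxb13 peaks (orange squares) of Myl3 lie upstream, near the start and past the end, those of Mybpc3 near the start, inside the gene and past the end, and the Meis1 peaks (blue circles) of Mylk3 lie at or near its starts.

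Promoter peaks were present for Hoxb13 at 5 genes, Myl2, Myl3, Myl7, Mylk3 and Mybpc3, and for Meis1 at 2, Myl3 and Mylk3. Those 2 had both. The shares over all protein-coding genes were 30.7% for Hoxb13, 8.16% for Meis1 and 4.70% for both. By peaks, 3 of the 10 Meis1 peaks (30.0%) were in the promoter class against 6.73% of the whole list, and 7 of the 35 Hoxb13 peaks (20.0%) against 40.3%. Instead, 18 of the 35 Hoxb13 peaks (51.4%) lay within 10 kb past the end of the assigned transcript, compared with 7.40% of the list. Myl2 gave 10 of these, Myl3 4, Mybpc3 3 and Mylk 1. Without Myl2 the share was 8 of 18 (44.4%). Measured from the end of the RefSeq gene, it was 9 of 35 (25.7%), compared with 7.11% of the list. Of the Meis1 peaks 2 of 10 lay past the end of the assigned transcript, against 3.83% of their list, and the same number past the RefSeq gene, against 3.62%. These are descriptions of 45 peaks of 7 genes, which share neighbourhoods and are not replicates, and no test was made.

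Of the 5 pairs of a Meis1 and a Hoxb13 peak within 500 bp of each other, 4 lay side by side and 1 overlapped. An overlap of at least 1 bp was seen for 1 of the 10 Meis1 peaks (10.0%, against 5.54% of the Meis1 list) and 1 of the 35 Hoxb13 peaks (2.86%, against 7.93% of theirs). Within 500 bp, overlaps included, 4 of the 10 Meis1 peaks had a Hoxb13 neighbour, against 8.68% of the list, and 5 of the 35 Hoxb13 peaks (14.3%) a Meis1 neighbour, against 13.2%. Of Meis1 promoter peaks anywhere 51.2% had a Hoxb13 peak within 500 bp, and of the 3 here 2 did. The Hoxb13 peaks are wider, 396 bp for 98.8% of their list against 284 bp for 95.0% of Meis1 peaks, which bears on any overlap. The protocols say that each heart's chromatin was divided between the antibodies, although the titles number the libraries separately.

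**Figure D5:**
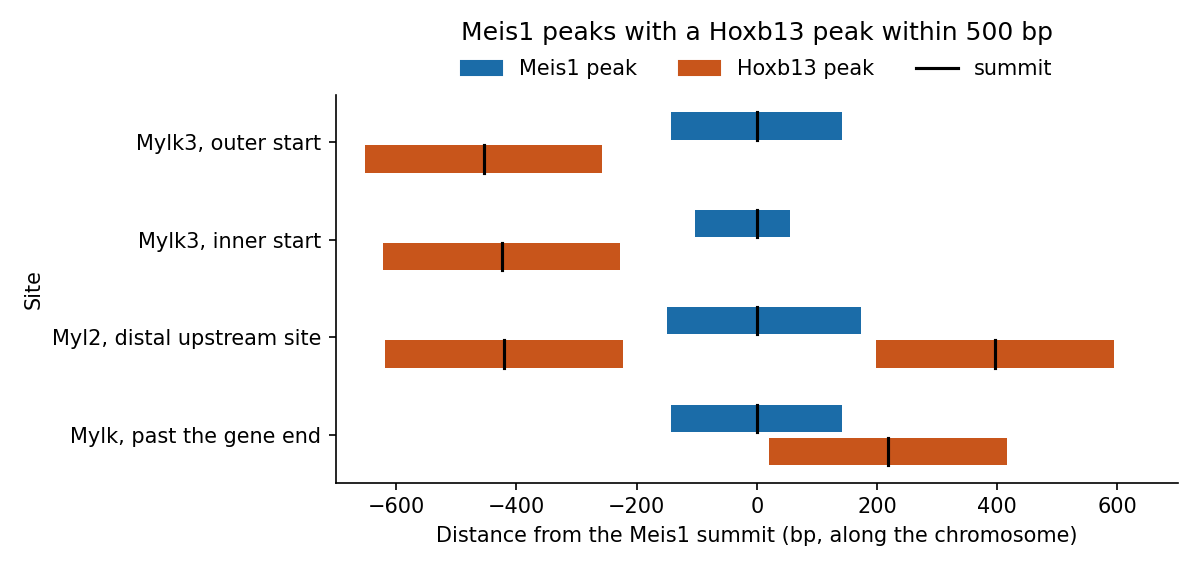
Extent of each Meis1 peak (blue) that has a Hoxb13 peak (orange) within 500 bp, drawn in bp from the Meis1 summit along the chromosome, with summits as black lines. Only the Mylk pair overlaps (121 bp); at Myl2 the Meis1 peak sits between 2 Hoxb13 peaks, and at both Mylk3 starts the Hoxb13 summit is 424 bp and 454 bp away on the same side.

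Among 40 other genes of light chains, thick filament and their regulation, a list that holds the other Myl genes, further kinases, the myosin phosphatase, calmodulins and myosin heavy chains, 26 (65.0%) had a Meis1 peak, 31 (77.5%) a Hoxb13 peak and 21 (52.5%) both. The corresponding numbers for the 7 genes were 4, 7 and 4, and the shares of all protein-coding genes 38.2%, 44.4% and 23.9%. Promoter peaks were found at 8 of the 40 for Meis1 and 24 for Hoxb13. The genes with the strongest Meis1 peak were Ppp1r14c, which encodes an inhibitor of protein phosphatase 1 (strength 342, 48.8 kb downstream of the start), and Ppp1r12b, a targeting subunit of myosin phosphatase (253). For Hoxb13 it was Dapk3, a kinase that also phosphorylates regulatory light chains, with a peak 71 bp upstream of the start (127), followed by Calm3, a calmodulin gene (77.6). Overlapping peaks were seen at 6 genes, namely the light chain kinase genes Mylk2 and Mylk4, the protein kinase A catalytic gene Prkaca and the heavy chain genes Myh6, Myh7 and Myh9. Myl6b, Myl10, Mylpf and Ppp1r14d had no peak of either factor. Myh6 and Myh7, with 15 Hoxb13 peaks each, came closest to the 17 of Myl2.

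Because Mylk is also a smooth muscle gene and Myl4 and Myl7 are atrial genes, short lists of each kind were read beside them; Myh11 and Myl1 are also in the longer list. Over all protein-coding genes 38.2% had a Meis1 peak, 44.4% a Hoxb13 peak and 6.11% overlapping peaks. Of 15 smooth muscle and pericyte genes 8 (53.3%) had a Meis1 and 11 (73.3%) a Hoxb13 peak. Overlapping peaks were seen at 2 of them (13.3%), Myocd, the coactivator myocardin, and Des, the filament protein desmin. The strongest Meis1 peak of these genes belonged to Myocd (173, 23.2 kb upstream) and the strongest Hoxb13 peak to Mcam, a cell adhesion molecule (40.5, 4.44 kb upstream). Actg2, Cnn1 and Lmod1 had no peak. Of 14 genes listed as atrial 12 (85.7%) had a Meis1 and 8 (57.1%) a Hoxb13 peak. Myl1 is among the 12, and its place among atrial genes was not checked here. The strongest Meis1 peak there belonged to Gja5, the connexin of atrial and conduction cells (strength 217, 30.5 kb downstream), and the strongest Hoxb13 peak to Nr2f1, a nuclear receptor (29.7, 0.283 kb upstream). Overlapping peaks were seen at 1 of the 14 (7.14%), Stard10, a lipid transfer protein gene (Meis1 peak of strength 18.3), and Clu had no peak. The lack of Meis1 peaks at Myl4 and Myl7 was thus not shared by most of that list. Peaks cannot tell which cells of the ventricle carried them.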

How the data were processed

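Ventricles of 3 mouse hearts were used per the labels' protocols, with 12 libraries grouped by their titles. The submitters' processing notes name mm10, Bowtie2 2.2.3, ChIPseeker, Picard and deepTools 1.6 without saying what each did. How peaks were found, cut off and joined over libraries is not stated in the labels or files. The authors deposited 1 annotated peak list per factor, in which each peak has a signal value, here its strength, whose normalization is not stated; per the file headers its column has only a number, and its place is that of the narrowPeak signal field. A score per peak that the authors also deposited was not used.

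Peaks were taken by the deposited gene symbol (Python 3.11.15, pandas 2.3.3). Summits are start plus the deposited offset, which is the middle of most peaks. Overlap needed 1 bp, and the code was tested on simulated intervals. The deposited promoter class reaches about 1 kb from a start. Gene bodies and promoter sequences are RefSeq, GRCm38.p6, matched by gene number (for Meis1 9830 of 9840 genes were found, for Hoxb13 10969 of 10981). RefSeq starts are those of the promoter sequences, which do not cover every start. Shares of all protein-coding genes serve as background. No test was made, because each list has 1 value per peak over 3 libraries. The 7 genes and the lists were chosen with earlier results of these data known. Genes of the lists are named if they have overlapping peaks, a strongest peak or no peak. Alternatives were stricter strength, other distances, other gene models and other overlap rules.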

Additional observations from a re-analysis of the deposited data

How the results depend on the processing

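With the stronger 50% of each list, 8 Meis1 and 21 Hoxb13 peaks of the 7 genes were left, and promoter peaks were left at 1 gene for Meis1 and 3 for Hoxb13. With the strongest 10%, 4 peaks of each factor were left, at 2 genes for Meis1, 2 for Hoxb13 and 1 for both, with promoter peaks at 1 gene for each factor. Of the regions shared by the factors (1 by overlap), 0 had summits within 100 bp, 0 had a reciprocal overlap of 50%, and 5 pairs of peaks were found when a gap of at most 500 bp was allowed. Chosen after the data were seen, leaving out Myl2 gave 18 Hoxb13 peaks in place of 35 and 8 past the transcript end in place of 18, and the end of the RefSeq gene gave 9. The other alternatives (peaks by RefSeq gene body, within 10 kb or 3 kb of the start, RefSeq starts by peak edge or by summit, joined peaks) stayed within 1.5 times the reported counts. No paired analysis was possible because each deposited list combines the 3 libraries of a factor and has no value per replicate, which also means that no replicate could be left out. Read depth is unknown, so a gene without a peak is a gene without a listed peak.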
